A study of Mus musculus with 12 samples.

Results

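The genes described here encode 6 of the largest ubiquitin ligases of the mouse: Ubr4, Huwe1, Herc1, Herc2, Birc6 and Mycbp2. They were chosen by name, as 6 of the 53647 genes counted, for a shared type of product and a long transcript. The choice was made with earlier results of these data known, and Ubr4 was picked because its count fell after one of the treatments. Ubr4 is therefore described by its values and no test is given for it, while the other 5 genes were tested in a fit over all 14863 genes that passed the filter on low counts, as all 6 did. The samples are 12 RNA-seq libraries of wild-type mouse cell lines, in 6 groups of 2 preparations. DC2.4 is an immortalized dendritic cell line and 4T1 a breast cancer line. Each line received mRNA coding for uniSTING, which the series title calls a mimic of STING, the adaptor that drives type I interferon and NF-kB signalling, or Mock mRNA coding for EGFP. A further pair of groups, labelled DC2.4, was incubated for 24 h with extracellular vesicles isolated from 4T1 cells that had received uniSTING (EXOuniSTING) or Mock mRNA (EXOmock). The mRNA was delivered with the TransIT-mRNA reagent or in SS-OP lipid nanoparticles, without a statement of which was used for which library, and no time is given for the mRNA groups. All 6 groups are wild type, and nothing in the labels says that the preparations were separate cultures, so p-values measure the spread between preparations, which may be technical.

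Ubiquitin is activated by an E1 enzyme, passed to an E2 conjugating enzyme and attached to a substrate with the help of an E3 ligase, which selects the substrate; chains of ubiquitin send many substrates to the proteasome. Huwe1, Herc1 and Herc2 carry a HECT domain, which takes the ubiquitin onto its own cysteine before handing it on. Ubr4 carries a UBR box that binds proteins through destabilizing first residues (N-degrons). Birc6 joins an inhibitor-of-apoptosis (BIR) domain to an E2 domain, and Mycbp2 relays ubiquitin between cysteines of its RING region. All of them are broadly expressed, and in innate immune cells ubiquitin ligases set the lifetime and activity of sensors and adaptors.

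The members are spread over 6 chromosomes, in the GRCm39 coordinates of the files. Ubr4 (ENSMUSG00000066036) lies on the plus strand of chromosome 4 at 139079920 to 139216899, with 17997 exonic bases. Huwe1 (ENSMUSG00000025261) lies on the plus strand of chromosome X at 150583803 to 150718413, with 23507 exonic bases. Herc1 (ENSMUSG00000038664) has the longest exonic sequence of the 6, 27464 bases, on the plus strand of chromosome 9 at 66257732 to 66416057. Herc2 (ENSMUSG00000030451) has the shortest, 16175 bases, on the plus strand of chromosome 7 at 55699944 to 55881548. Birc6 (ENSMUSG00000024073) has 25772 exonic bases on the plus strand of chromosome 17 at 74835290 to 75010351. Mycbp2 (ENSMUSG00000033004) is the only member on the minus strand, with 19364 bases on chromosome 14 at 103350847 to 103584250. Their coding sequences are more alike, from 13.1 kb in Huwe1 to 15.5 kb in Ubr4, so that coding sequence makes up 89.7% of the exonic length of Herc2 but 53.1% of that of Herc1. Reads were counted without strand and some exons overlap other genes: 1096 bases of Herc1 (Gm28379 and Fbxl22, both antisense), 611 of Birc6 (Gm26749, antisense), 109 of Ubr4 (Emc1) and 76 of Huwe1 (Mir3113). These are at most 3.99% of a member's exonic bases, and counts from them cannot be told apart by strand.

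The sequence just before the start site is shown for 3 of the 6 genes, and its part in their changes was not tested. Ubr4 had the lowest log2 fold change of the 6 in the DC2.4-labelled mRNA pair, and Herc2 came next to it there. Huwe1 was the most abundant per length. Each line gives the 120 bases before the annotated start, 5′ to 3′ on the gene's strand, with GC boxes (GGGCGG, either strand) and CCAAT boxes (either strand) in capitals. Sequences are those of RefSeq on GRCm38.p6, an older build than that of the counts, at chr4:139380539-139380658 for Ubr4, chrX:151803162-151803281 for Huwe1 and chr7:56050035-56050154 for the upstream of the 2 start sites of Herc2, all on the plus strand.
Ubr4: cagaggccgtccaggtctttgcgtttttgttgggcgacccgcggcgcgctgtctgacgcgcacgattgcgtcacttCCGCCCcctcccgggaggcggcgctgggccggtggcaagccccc
Huwe1: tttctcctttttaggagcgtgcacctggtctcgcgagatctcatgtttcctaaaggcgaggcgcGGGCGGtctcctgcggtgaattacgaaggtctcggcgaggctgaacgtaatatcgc
Herc2: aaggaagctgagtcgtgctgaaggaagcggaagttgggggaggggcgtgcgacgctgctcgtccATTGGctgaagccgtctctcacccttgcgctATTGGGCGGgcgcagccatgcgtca

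In Ubr4 the GC box starts 44 bases before the start site, on the opposite strand, and in Huwe1 it starts 56 bases before it. In Herc2 a GC box 22 bases before the start overlaps the second of a pair of CCAAT boxes, which is why its capitals run together. Promoter windows of 300 bases (250 before the start and 50 after) were at hand for 5 members, all but Mycbp2. All of these members held a GC box, as did 35.7% of the 32851 promoters in the table, and Herc2 alone held a CCAAT box, which 37.4% of promoters hold. The YY1 core AAGATGGC was found in the window of Ubr4, 25 bases after the start site, and in 2.75% of all promoters. The core of the interferon-stimulated response element (in 3.44% of promoters), the TATA box (TATAAA, 13.6%), the ETS core (CCGGAAG, 8.86%) and the NRF1 motif (0.971%) were in none of the 6 windows of these 5 members (Herc2 has 2), each searched on both strands. The windows were rich in CpG: that of Ubr4 held 37 CpG and that of Huwe1 31, where the median promoter held 7. The shares of all promoters given above were not matched for base content, on which the number of GC boxes depends.

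Libraries held 14.1 to 26.0 M gene counts, and preparation 2 was sequenced 1.26 to 1.42 times as deeply as preparation 1 in every group. Marker genes went against the cell-line labels of the mRNA groups. The 15 epithelial markers together took 5376 to 5558 CPM (counts per M of the library total) in the 4 mRNA libraries labelled DC2.4 and at most 6.70 CPM in the other 8. The 15 leukocyte markers took 9811 to 10166 CPM in the 4 libraries labelled 4T1 and 145 to 188 CPM in the mRNA libraries labelled DC2.4; Itgax, a dendritic cell integrin, had 0 counts in both Mock libraries labelled DC2.4. The EXO libraries, also labelled DC2.4, carried 11677 to 14562 CPM of leukocyte markers. Fibroblast markers reached at most 14.5 CPM and lymphocyte markers at most 1.22 CPM in any library. Groups are therefore named by their labels below. Every test, except those between the Mock groups and of the difference of responses, was made within one label and one kind of treatment. The order of groups and the likeness of patterns, described without a test, run across labels and treatments.

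In every group the 6 genes were well counted, with 426 to 9798 counts per gene and library. The order of groups was shared at both ends: each of the 6 genes was highest in the uniSTING libraries labelled 4T1 and lowest in the uniSTING libraries labelled DC2.4. Summed over the 6 genes, the level was 1255 and 1252 CPM in the former and 337 and 348 CPM in the latter. The Mock libraries lay between, at 1055 and 1048 CPM under the 4T1 label and 668 and 657 CPM under the DC2.4 label. The EXOmock libraries held 857 and 840 CPM and the EXOuniSTING libraries 617 and 622 CPM. For each gene, no 2 groups next to each other in the order had overlapping libraries, with 2 libraries per group. The share of all genes with this order, or without overlap here or in the pairs below, is not given. Neither is therefore read as particular to the members. The closest neighbours relative to their spread were EXOmock and Mock labelled DC2.4 for Huwe1, which differed by 13.5 CPM where their SDs combined to 5.33 CPM, and 4T1-labelled Mock and EXOmock for Mycbp2, which differed by 6.59 CPM against 2.44 CPM.

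**Figure D1:**
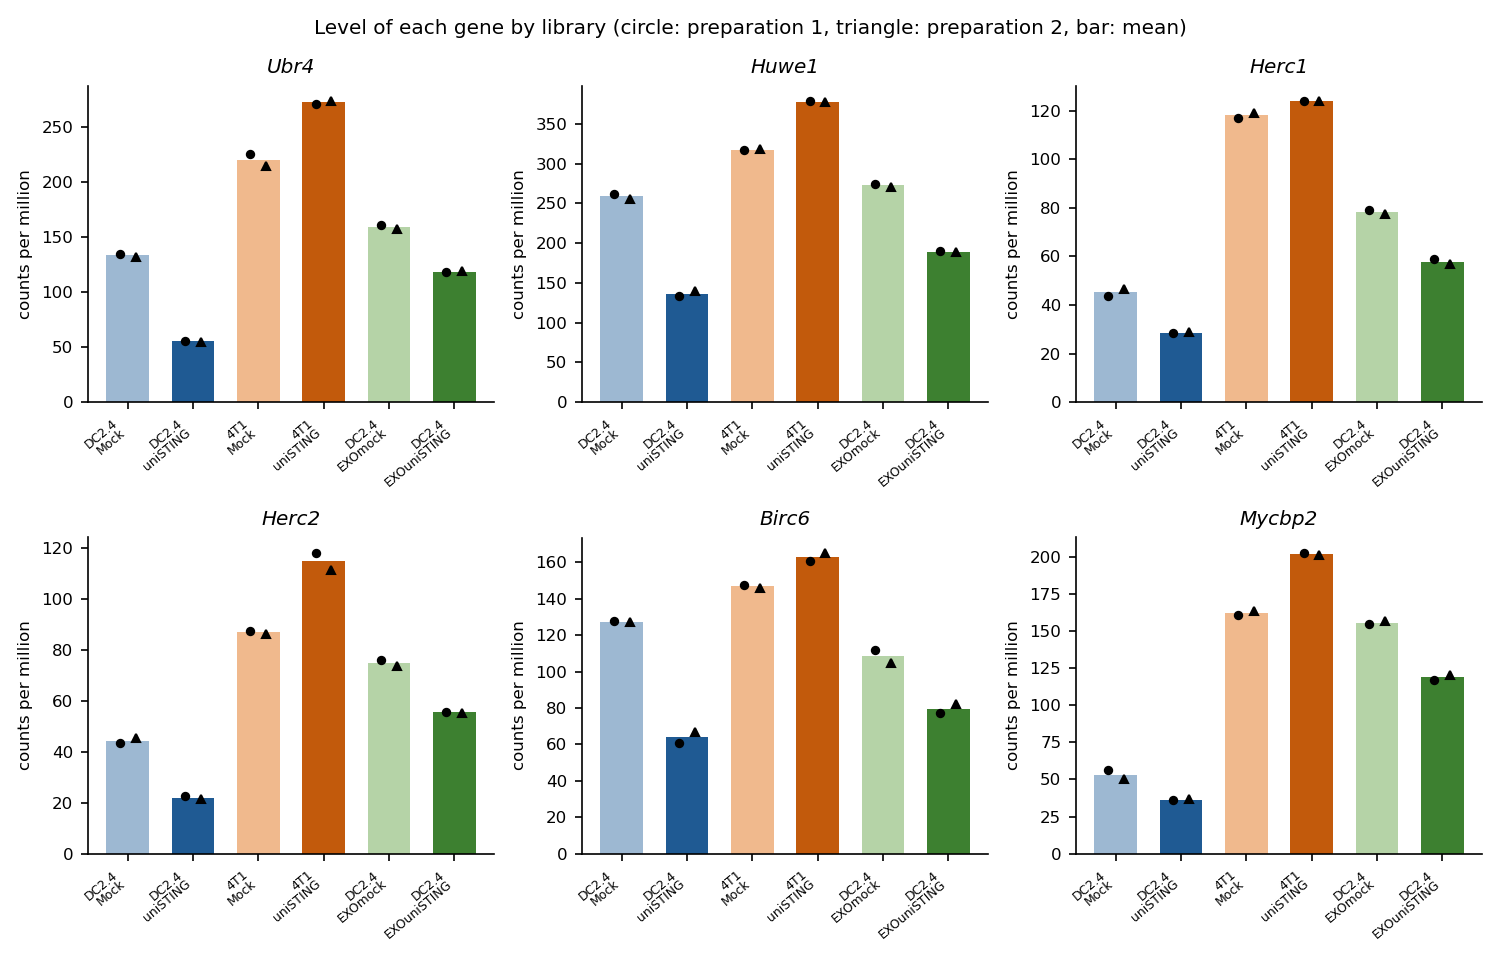
CPM (y axis, from 0) of each of the 6 genes in the 12 libraries, by labelled cell line and treatment; circles are preparation 1, triangles preparation 2 and bars their mean. In each panel the 4T1 uniSTING bar is the highest and the DC2.4 uniSTING bar the lowest, and the 2 preparations of a group lie close together.

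Levels can be compared between genes per kb of exonic length. On that scale Huwe1 was highest of the 6 in every group, from 5.79 ± 0.19 CPM per kb (SD, n = 2) in the DC2.4-labelled uniSTING libraries to 16.1 ± 0.04 in those labelled 4T1. Ubr4 came second in every group and Herc1 last, at 1.04 ± 0.01 and 4.51 ± 0.0014 CPM per kb in the same 2 groups. Per kb of coding sequence, Huwe1 stayed first and Herc2 took the last place in every group. The level of Ubr4 relative to Huwe1, per kb of exonic length, was 0.93 and 0.88 in the 4T1-labelled Mock libraries and 0.93 and 0.95 in the 4T1-labelled uniSTING libraries. Under the DC2.4 label it was 0.67 in both Mock libraries and 0.54 and 0.52 in the uniSTING libraries after mRNA. In the EXO libraries it went the other way, from 0.76 in both EXOmock libraries to 0.81 and 0.82 with EXOuniSTING. These ratios are given as values with no test, and their size depends on the length used. Per kb of coding sequence, the 4T1-labelled Mock libraries held a mean of 14.1 CPM for Ubr4 and 24.2 CPM for Huwe1.

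Ubr4, which works with the E3 Kcmf1 and calmodulin in degrading N-degron proteins and unassembled proteins, stood at 0.42 of its Mock level after uniSTING mRNA under the DC2.4 label. The Mock libraries held 135 and 132 CPM and the uniSTING libraries 55.2 and 55.0 CPM. A gap in this pair follows from the choice of the gene. The fitted log2 fold change was -1.25, and the log2 ratio of CPM, without the scaling of the fit, was -1.29 in preparation 1 and -1.26 in preparation 2. Under the 4T1 label the direction was the opposite, from 225 and 215 CPM in Mock to 271 and 273 CPM after uniSTING, a log2 fold change of 0.28. In the EXO groups Ubr4 went from 161 and 157 CPM with EXOmock to 118 and 119 CPM with EXOuniSTING, a log2 fold change of -0.42. The groups did not overlap in any of the 3 pairs, and no test is given because the gene was chosen for its fall. In bulk RNA, fewer cells of a type and less RNA of a gene per cell cannot be told apart, here and in every result that follows.

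Huwe1, a HECT ligase known for ubiquitinating Mcl1, Myc, p53 and free histones, fell in the DC2.4-labelled libraries from 262 and 256 CPM to 133 and 139 CPM. Its log2 fold change was -0.91 (SE 0.03, adjusted p = 1.15e-11, edgeR quasi-likelihood test over 14863 genes). In the 4T1-labelled pair it rose from 317 and 318 to 379 and 377 CPM, by 0.22 on the log2 scale (SE 0.02, adjusted p = 1.32e-05, edgeR). With EXOuniSTING it fell from 275 and 270 CPM to 190 and 188 CPM, a log2 fold change of -0.53 (SE 0.03, adjusted p = 4.55e-08, edgeR). Both preparations moved the same way in each pair, and the 4 libraries of a pair never overlapped.

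Birc6, also called BRUCE or Apollon, receives ubiquitin from the E1 Uba6 and holds caspases in check. It fell under the DC2.4 label from 128 and 127 CPM to 60.9 and 66.9 CPM, a log2 fold change of -0.97 (SE 0.04, adjusted p = 8.34e-10, edgeR). The Mock libraries labelled 4T1 held 148 and 146 CPM and their uniSTING counterparts 161 and 165 CPM. The log2 fold change of 0.13 (SE 0.04) passed the threshold in edgeR (adjusted p = 0.0241) but not in DESeq2 (adjusted p = 0.0824). It also missed it without either 4T1-labelled Mock library (adjusted p = 0.0711 and 0.0928 in edgeR) and without preparation 2 of the uniSTING libraries (adjusted p = 0.159). With EXOuniSTING Birc6 fell from 112 and 105 CPM to 77.0 and 82.1 CPM, a log2 fold change of -0.44 (SE 0.05, adjusted p = 3.5e-05, edgeR).

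Herc2, a partner of the ligase Ube3a that recruits repair factors to DNA breaks, fell under the DC2.4 label from 43.3 and 45.4 CPM to 22.6 and 21.3 CPM, a log2 fold change of -1.0 (SE 0.05, adjusted p = 3.85e-09, edgeR). It rose in the 4T1-labelled pair from 87.3 and 86.2 to 118 and 111 CPM, a log2 fold change of 0.37 (SE 0.04, adjusted p = 7.82e-06, edgeR), the largest rise among the 5 tested members. With EXOuniSTING it fell from 76.0 and 73.5 CPM to 55.7 and 55.0 CPM, by -0.43 (SE 0.05, adjusted p = 3.06e-05, edgeR). Herc1, the other giant of the HERC family, known for binding Tsc2 and the clathrin coat, was called in 2 of the 3 pairs. It fell under the DC2.4 label from 43.9 and 46.7 CPM to 28.4 and 28.8 CPM, a log2 fold change of -0.65 (SE 0.05, adjusted p = 9.31e-08, edgeR). Its levels under the 4T1 label were 117 and 119 CPM in Mock and 124 CPM in both uniSTING libraries. The fitted log2 fold change of 0.04, with a 95% interval from -0.03 to 0.11, was not called (adjusted p = 0.406, edgeR), which leaves rises and falls within that interval possible. With EXOuniSTING Herc1 fell from 79.2 and 77.4 CPM to 59.2 and 56.7 CPM, by -0.44 (SE 0.04, adjusted p = 1.26e-05, edgeR).

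Mycbp2, known from neurons, where it acts with the F-box protein Fbxo45 and limits the kinase Map3k12, showed the smallest of the falls under the DC2.4 label. Its level went from 56.3 and 50.001 CPM to 36.3 and 36.5 CPM, a log2 fold change of -0.52 (SE 0.05, adjusted p = 2.39e-06, edgeR). Its level rose in the 4T1-labelled libraries from 161 and 164 CPM to 203 and 201 CPM, by 0.29 (SE 0.03, adjusted p = 2.98e-05, edgeR). With EXOuniSTING it fell from 155 and 157 CPM to 117 and 121 CPM, by -0.39 (SE 0.04, adjusted p = 1.97e-05, edgeR).

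**Figure D2:**
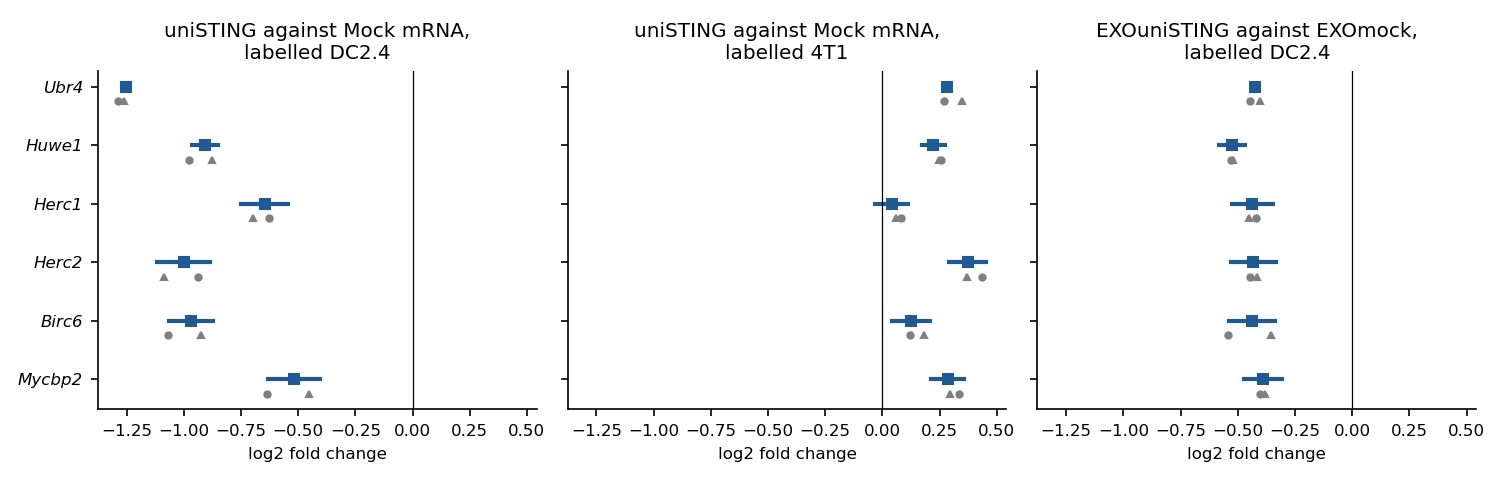
Log2 fold change (x axis) of each gene in the 3 uniSTING against control pairs. Squares are the fitted values with 95% intervals as bars (none for Ubr4, which was not tested), and grey circles and triangles are the ratios within preparations 1 and 2; all values lie below 0 in the left and right panels and above 0 in the middle one, where the Herc1 interval includes 0.

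Set against all genes, 5 of the 5 tested members were called lower with uniSTING mRNA under the DC2.4 label, where 20.9% of the 14863 genes were called lower. This is the contrast from which Ubr4 was picked, and the members were chosen with earlier results of these data known. Under the 4T1 label 4 of 5 were called higher, against 12.6% of all genes. With EXOuniSTING 5 of 5 were called lower, against 8.14% of all genes. The median log2 fold change of the 5 members other than Ubr4 was -0.91, 0.22 and -0.44 in the 3 pairs, in that order, and that of all tested genes was within 0.01 of 0 in each. In the EXO pair the 6 values were close together, from -0.53 to -0.39, while under the DC2.4 label with mRNA they ranged from -1.25 to -0.52; members were not tested against each other. The 15 leukocyte markers summed to 14473 and 14562 CPM with EXOmock and 11677 and 12457 CPM with EXOuniSTING, with 4 of them called higher and 3 lower. This difference came from Lyz2, singled out after its values were seen (mean 8625 and 6157 CPM, adjusted p = 0.206 in edgeR): the other 14 summed to 5859.5 and 5923.7 CPM with EXOmock and 5908.1 and 5911.5 CPM with EXOuniSTING. In the DC2.4-labelled mRNA libraries the epithelial markers summed to 5376 and 5436 CPM with Mock and 5557 and 5558 CPM with uniSTING, with 2 of the 15 called higher and 2 lower. In the 4T1-labelled pair the leukocyte markers summed to 10147 and 10166 CPM with Mock and 9811 and 9822 CPM with uniSTING, with 2 of the 15 called higher and 8 lower. The part of these marker genes in the members' values was not tested.

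The response to uniSTING mRNA differed between the labels for all 5 tested members. The difference of log2 fold changes, DC2.4 label minus 4T1 label, was -1.37 for Herc2 (SE 0.07, adjusted p = 2.75e-09), -1.13 for Huwe1 (SE 0.04, adjusted p = 4.48e-11) and -1.09 for Birc6 (SE 0.06, adjusted p = 8.6e-09) in edgeR. It was smaller for Mycbp2, at -0.80 (SE 0.06, adjusted p = 3.62e-07), and Herc1, at -0.69 (SE 0.06, adjusted p = 8.09e-07, both edgeR). For Ubr4 the difference was -1.54, not tested. Across all genes, 15.1% were called lower in this contrast. Among 74 other genes with at least 12 kb of exonic and 9 kb of coding sequence, 49 (66.2%) were lower and 4 higher. The median difference of these 74 genes was -0.89. The groups compared differ in label, in marker genes and possibly in the way of delivery, which cannot be told apart.

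Without uniSTING, the 6 genes were also lower in Mock libraries labelled DC2.4 than in those labelled 4T1, though by very different amounts. Mycbp2 differed most, with a log2 difference of -1.54 (SE 0.04, adjusted p = 6.96e-14), followed by Herc1 with -1.31 (SE 0.04, adjusted p = 2e-13, both edgeR). Herc2 differed by -0.89 (SE 0.04, adjusted p = 7.1e-11), Huwe1 by -0.22 (SE 0.02, adjusted p = 1.22e-06) and Birc6 by -0.13 (SE 0.04, adjusted p = 0.00769) in edgeR. The Birc6 call was lost with upper-quartile factors (adjusted p = 0.0614), and its value turned to 0.10 once the trend with length was subtracted. Ubr4 differed by -0.64. All 5 tested members were called lower, as were 40.5% of all genes. Of the 74 other genes of long exonic and coding sequence, 40 (54.1%) were lower and 24 higher. The same Mock libraries enter the uniSTING comparisons above.

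The genes of similar length give a closer background. Besides the members, 720 tested genes had 12 kb or more of exonic sequence, where the median tested gene had 3.92 kb. Under the DC2.4 label 397 of these 720 (55.1%) were called lower with uniSTING mRNA and 46 higher, and their median log2 fold change was -0.27. Over deciles of all genes by length, the median went from 0.24 in the shortest to -0.22 in the longest. The same deciles had medians of 0.01 and -0.03 in the 4T1-labelled pair, and 0.01 and -0.05 with EXOuniSTING. Length thus moved with the response most in the pair where the members had their lowest values, and RNA integrity was not analysed here.

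Coding length separated the long genes further. The 74 long genes with 9 kb or more of coding sequence had a median log2 fold change of -0.72 under the DC2.4 label, with 51 called lower and 3 higher. In the 630 long genes with shorter coding sequences the median was -0.25. For the 4T1-labelled pair the median was 0.18 for the 74, with 32 called higher and 5 lower, and -0.03 for the 630. With EXOuniSTING it was -0.25 for the 74, with 36 called lower and 3 higher, and -0.05 for the 630. Being called lower, higher and lower in the 3 pairs was found for 164 of the 14863 genes (1.1%), for 25 of the 630 (3.97%) and for 24 of the 74 (32.4%). Among the tested members this pattern was met by Huwe1, Herc2, Birc6 and Mycbp2.

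Subtracting the trend of log2 fold change with exonic length (a lowess curve) left values of the same sign in all 3 pairs. Under the DC2.4 label the remaining log2 fold change was -0.91 for Ubr4, -0.69 for Herc2, -0.52 for Birc6 and -0.48 for Huwe1, but only -0.18 for Herc1 and -0.16 for Mycbp2. In the 4T1-labelled pair 0.39 remained for Herc2, 0.29 for Ubr4 and for Mycbp2, 0.21 for Huwe1 and 0.10 for Birc6, while the 0.01 left for Herc1 was smaller than the SE of its fold change (0.03). The remainders lay between -0.40 (Huwe1) and -0.29 (Mycbp2) with EXOuniSTING. These are values with no test, and the part of coding length in them was not tested.

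Because Ubr4 was picked for its fall under the DC2.4 label, its rank there is a description only. Within the 720 long genes, 16 had a lower log2 fold change than Ubr4 under the DC2.4 label, and 5 of those were among the 74 of long coding length. For Herc1 the numbers were 123 and 42, and for Mycbp2 188 and 49. The genes just below Ubr4 were Cdh23, a cadherin of hair cells (-1.37, adjusted p = 0.00365), Dync1h1, the heavy chain of cytoplasmic dynein (-1.37, adjusted p = 1.24e-12), and Dlgap1, a synaptic scaffold (-1.36, adjusted p = 0.0503), all in edgeR. Just above it were the atypical cadherin Fat1 (-1.23, adjusted p = 5.71e-08), Prune2 (-1.21, adjusted p = 0.0279) and the focal adhesion protein Lpp (-1.12, adjusted p = 1.13e-08, edgeR). Of these 6, Dync1h1 and Lpp were also called lower with EXOuniSTING, at -0.33 (adjusted p = 1.45e-05) and -0.31 (adjusted p = 0.00255, edgeR). None was called in the 4T1-labelled pair. The uncalled log2 fold changes with EXOuniSTING were -1.49 for Dlgap1, -1.30 for Fat1, 1.01 for Cdh23 and 0.24 for Prune2. A missing call for these genes is therefore not read as an absence of change.

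The genes closest to each member in pattern were taken by the root mean square difference of centred log2 CPM over the 12 libraries, among 10775 genes with at least 1000 counts. Closest to Ubr4 were the ligase Cbl, which ubiquitinates receptor tyrosine kinases (difference 0.11), the receptor Notch2 (0.11), the cytoskeletal linker Dst (0.15), the growth factor receptor Igf1r (0.16) and huntingtin, Htt (0.17). Herc2 came sixth, at 0.17. The log2 fold changes of the first 5 under the DC2.4 label were -1.10, -1.10, -0.98, -0.96 and -0.90. These low values follow from the choice, because the 12 libraries compared include this pair. Cbl, Notch2 and Dst were also called higher under the 4T1 label and lower with EXOuniSTING. Igf1r and Htt were called in neither of those pairs. The nearest gene to Huwe1 was Syne1, a nesprin of the nuclear envelope (0.09), followed by Birc6 (0.11), and the nearest to Birc6 was Huwe1. Herc2 was nearest to the HECT ligase Hectd4 (0.09), Herc1 to the kinetochore protein Kntc1 (0.10) and Mycbp2 to the lipid transfer protein Vps13d (0.13). Birc6 and Mycbp2 were the least alike pair of members, with a difference of 0.70. Points of one group share label and treatment, so these are descriptions over 12 libraries that are not independent.

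Other genes of the ubiquitin system were read from lists. Over all tested genes, 20.8% were called higher and 20.9% lower under the DC2.4 label, 12.6% and 15.7% under the 4T1 label, and 7.96% and 8.14% with EXOuniSTING. Of 22 further HECT ligases tested, 9 were called lower and 2 higher under the DC2.4 label, with a median log2 fold change of -0.11 against 0.00 over all genes. Their median exonic length is 9.42 kb, and after subtracting the length trend the median was 0.04. Hectd4, with 16.44 kb of exonic sequence, was among those that fell (-0.84, adjusted p = 7.58e-07), while Herc6, the mouse ISG15 ligase, rose (0.92, adjusted p = 0.00101, edgeR). Among the 4T1-labelled libraries 5 rose and 5 fell, Hectd4 among the former (0.19, adjusted p = 0.0175) and Wwp1 among the latter (-0.62, adjusted p = 2.73e-08, edgeR). With EXOuniSTING 4 fell, Hectd4 among them (-0.41, adjusted p = 0.000739, edgeR), and 1 rose.

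In the N-degron pathway, 12 genes besides Ubr4 were tested. Under the DC2.4 label 5 fell, among them the recognins Ubr2 (-0.42, adjusted p = 5.86e-08) and Ubr1 (-0.41, adjusted p = 1.35e-05). The 3 that rose were the Ubr4 partner Kcmf1 (0.21, adjusted p = 9.78e-06) and the conjugating enzymes Ube2b (0.40, adjusted p = 7.7e-07) and Ube2a (0.44, adjusted p = 1.29e-05, edgeR). The counts higher and lower were 2 and 3 under the 4T1 label and 3 and 3 with EXOuniSTING. The 9 inhibitors of apoptosis and their antagonists, the family of Birc6, had 3 higher and 1 lower under the DC2.4 label. Casp9, which starts the mitochondrial pathway of apoptosis, fell by 0.37 (adjusted p = 0.00303, edgeR). The counts were 2 and 2 under the 4T1 label, and 1 and 1 with EXOuniSTING.

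Of 20 tested partners and substrates of the members, 5 rose and 6 fell under the DC2.4 label. Among them were the Huwe1 substrate Myc (-0.40, adjusted p = 9.72e-08), the Herc1 partner Tsc2 (-0.51, adjusted p = 5.98e-07) and Uba6, the E1 that charges Birc6 (-0.34, adjusted p = 3.14e-05), all lower. Map3k12, which Mycbp2 limits, was higher (0.52, adjusted p = 0.00271, edgeR). Kcmf1 (0.21, adjusted p = 9.78e-06) and Skp1a (0.17, adjusted p = 5.54e-05, edgeR) were also higher, with smaller adjusted p. All of these are RNA levels, and the action of the members on the proteins was not tested. With the 4T1 label 1 rose and 4 fell, including Mcl1, another Huwe1 substrate (-0.28, adjusted p = 1.26e-06, edgeR). With EXOuniSTING none rose and 2 fell, Rnf41 (-0.19, adjusted p = 0.0127) and Trp53 (-0.17, adjusted p = 0.0482, edgeR). Of the 38 activating and conjugating enzymes, the counts higher and lower were 16 and 7, 7 and 6, and 4 and 5 in the 3 pairs.

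Of the 31 proteasome subunits, which degrade what the ligases mark, 30 were called higher and none lower under the DC2.4 label, with a median log2 fold change of 0.29 beside -0.91 for the 5 tested members, led by Psma3 (0.51, adjusted p = 3.38e-09, edgeR). Under the 4T1 label, where those members had a median of 0.22, 28 were higher and 1 lower, with a median of 0.23. With EXOuniSTING, where those members had a median of -0.44, 3 were higher and 3 lower, with a median of -0.03. The median subunit transcript is 2.81 kb long, and after subtracting the length trend the medians were 0.22, 0.23 and -0.05.

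**Figure D3:**
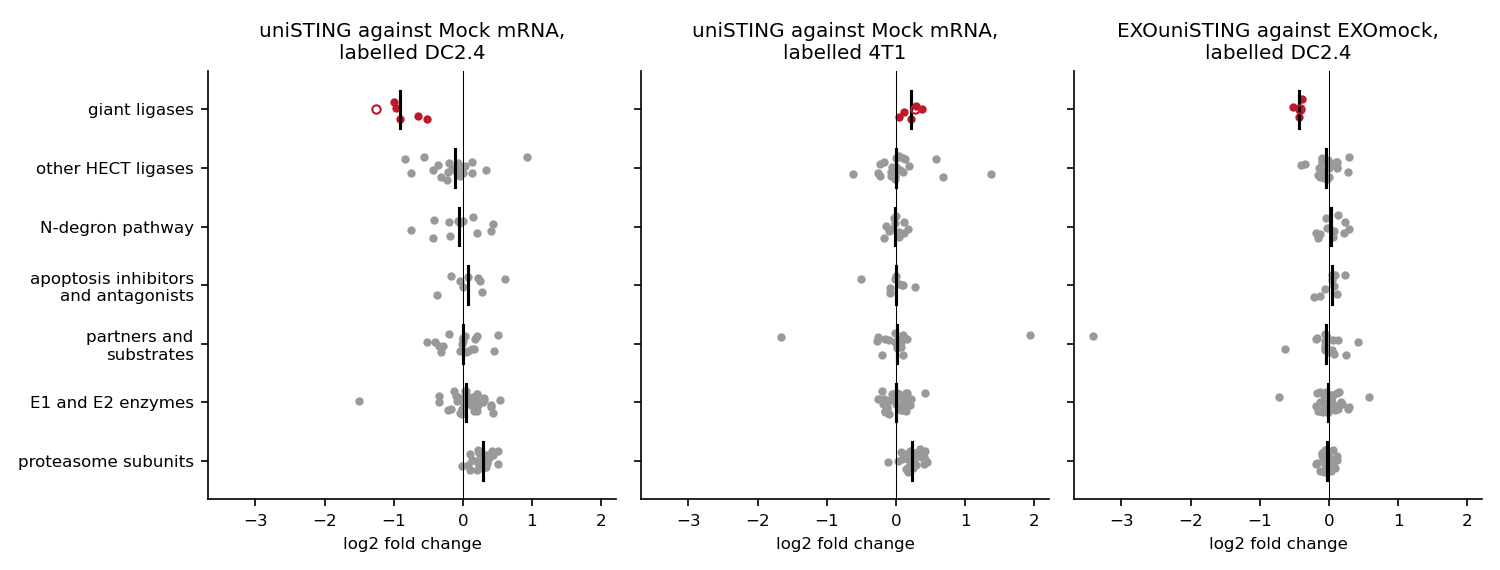
Log2 fold change (x axis) of the 5 tested giant ligases (red), of Ubr4 (open circle, left out of the median) and of each tested gene of the 6 lists (grey), with the median of each row as a black bar, in the 3 uniSTING against control pairs. The median of the giant ligases is -0.91 in the left panel, 0.22 in the middle one and -0.44 in the right one, and that of the proteasome subunits is 0.29, 0.23 and -0.03.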

How the data were processed

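RNA of 12 mouse libraries in 6 groups of 2 was used. The deposited values are gene counts: HISAT2 alignment to GRCm39 is named in the submitters' processing notes. Uniquely mapped read pairs were counted over exons of Ensembl 103 by featureCounts 2.0.1 with no strand option, per the file headers. Unique mapping can lower genes with close copies; the aligner version and any trimming are not given in the sources used here. Length is the exonic length in the deposited count files; coding length is the longest summed coding sequence of a GRCm38 annotation, used for lengths only.

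CPM is counts scaled to the library's total, without the TMM factors, which the fitted fold changes include. Fold changes come from edgeR 4.0.16 (R 4.3.3) on all 12 libraries: TMM factors, filterByExpr (14863 genes), quasi-likelihood F test, Benjamini-Hochberg adjustment over all tested genes, threshold 0.05; the common coefficient of variation was 3.05%. Standard errors were derived from the F statistics. The test was checked on simulated counts. Symbols matched 52093 of 53647 identifiers. Within groups, libraries differed by more than sampling noise (chi-square per gene 2.19 to 2.80).

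The members and lists were chosen with earlier results of these data known. Named genes were the members; per list and comparison, at most 3 called genes in each direction by smallest adjusted p; the 5 genes nearest to Ubr4 and 1 nearest to each other member; and 3 long genes on either side of Ubr4. Alternatives were upper-quartile and DESeq2 factors, DESeq2 1.42.0, limma-voom (limma 3.58.1), other filters, a fit to the compared libraries alone, the preparation as a block, removal of the length trend, and leaving out each library. Some genes that this rule picks are not reported here.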

Additional observations from a re-analysis of the deposited data

Results flagged for a closer look

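The fitted log2 fold changes after uniSTING mRNA had opposite signs under the labels DC2.4 and 4T1 for each of the 6 genes, and the difference of the log2 fold changes was -1.54 for Ubr4, -1.37 for Herc2, -1.13 for Huwe1, -1.09 for Birc6, -0.80 for Mycbp2 and -0.69 for Herc1. The difference passed edgeR's adjusted threshold for the 5 tested genes, and for Ubr4 it was not tested. In this contrast 15.1% of all genes were called lower. So were 49 (66.2%) of the 74 other genes of long exonic and coding sequence, with a median difference of -0.89. The share of all genes with opposite signs is not given. Herc1 by itself was not called under the 4T1 label, and Birc6 was called there in edgeR but not in DESeq2.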

How the results depend on the processing

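Over 20 alternatives for each member and comparison, all 6 members kept their direction, and the calls were kept except for Birc6, which lost its call in the 4T1-labelled pair in 4 (log2 fold change 0.10 to 0.15 over all 20, adjusted p 0.00406 to 0.159) and between the Mock groups in 1 (adjusted p = 0.0614). Subtracting the length trend turned the Birc6 difference between the Mock groups from -0.13 to 0.10. The EXOuniSTING comparison made 2393 calls over all genes, and 1294 to 2344 when 1 library was left out, with 1440 and 1354 without EXOmock preparation 1 or 2 and 1532 and 1294 without EXOuniSTING preparation 1 or 2. Leaving out 1 library gave 4805 to 6210 calls for uniSTING mRNA under the DC2.4 label, 2835 to 4174 under the 4T1 label, 3802 to 4596 for the difference of responses and 11814 to 12577 between the Mock groups. A lone library left in a group is assumed to vary like the others. The median log2 fold change of long genes under the DC2.4 label, -0.27 at 12 kb, was -0.24 at 10 kb, -0.34 at 15 kb and -0.69 with coding length of 9 kb in place of exonic length. A choice made after seeing the data, keeping long genes of long coding sequence with at least 1000 counts, left 24 of 61 (39.3%) called lower, higher and lower. Of these 61, 49 (80.3%) were called lower with uniSTING mRNA under the DC2.4 label. Same-numbered preparations deviated together (correlation 0.26 to 0.51 over 15 pairs of groups), but each comparison has 2 pairs and no label says that the number marks a batch. With the preparation as a replicate block, calls were 6414, 4432 and 2490 in the 3 pairs, 4689 for the difference of responses and 12409 between the Mock groups, and no member's call changed.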
